A study of Mus musculus with 9 samples.

Results

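Fos, Fosb, Fosl2, Jun, Junb and Jund encode the Fos and Jun proteins of activator protein 1 (AP-1), and their RNA was followed in the mediobasal hypothalamus of young male mice. The genes were taken by name, 6 of the 15340 genes tested and 6 of the 14592 named genes in the expression table deposited by the authors, and all 6 passed the filter on low counts. Their names were picked with the difference between the groups already known from these data. That difference is therefore given as a description, and the place of each gene among all genes tested is not independent support. The remaining Fos gene, Fosl1, was listed with 1 to 6.45 estimated counts per library (0.026 to 0.162 CPM, counts scaled to the size of the library) and was not tested.

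Every library came from a wild-type C57Bl/6 male at P21, the age of weaning. In the control group (CTRL, n = 4) the dams drank plain water, and in the emulsifier group (Emul, n = 5) they drank water with 1% carboxymethylcellulose (CMC) and 1% polysorbate 80 (P80), emulsifiers used as food additives, from before mating until the pups were weaned. The treatment label of each library was read as that of the dam, since 4 control and 5 emulsifier litters were described. P-values measure the spread between these 9 libraries. Exposure in the womb, through milk and through the dam's water cannot be told apart.

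AP-1 is a dimer of basic leucine zipper proteins that binds DNA. Jun proteins pair with each other or with Fos proteins, whereas Fos proteins need a Jun or related partner. Fos, Fosb, Jun and Junb are immediate early genes, transcribed within minutes of a stimulus without new protein synthesis. Fos is widely used as a mark of recently active neurons. Jund is expressed more steadily in most tissues.

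Total estimated counts ran from 28245360 (CTRL 3) to 46067534 (Emul 4). Of 16 markers of the mediobasal hypothalamus, 15 passed the filter, among them Pomc and Agrp, and Kiss1 was the exception. The share of counts on mitochondrially encoded protein genes was 4.51% to 5.52% in CTRL and 5.71% to 6.75% in Emul. The summed level of 7 oligodendrocyte lineage markers was 12547 to 15713 CPM in CTRL and 9621 to 13231 CPM in Emul, with 4 of them, Mbp included, lower at an unadjusted p-value under 0.05 and 0 past the adjusted one. Of 9 neuronal markers, 5 were higher and 1 lower at that unadjusted threshold. Over all genes tested, 6.84% were higher and 8.99% lower at it. The lower marker was Slc32a1 (log2 fold change -0.27), and Slc17a6 (0.29) was among the higher ones. Gad1 (-0.24), Gad2 (-0.23) and Syt1 (0.06) did not pass. The summed level of the 9 was 3614 to 3769 CPM in CTRL and 3717 to 3841 CPM in Emul. At the same threshold, 3 of 15 hypothalamic markers (Fezf1, Six3 and Isl1), 1 of 8 markers of astrocytes and tanycytes (Gfap) and 1 of 6 endothelial markers (Slco1a4) were lower by limma-voom, and 0 markers of these lists were higher. Of 8 thalamic markers, 2 were higher (Calb2 and Ntng1), and the list had a median log2 fold change of 0.38 (-0.05 to 0.96). Of 6 markers of the suprachiasmatic nucleus, 1 was lower (Vip) and 1 higher (Rora). None of the tested markers of microglia (7), red blood cells (5), telencephalon (6), pituitary (2) and choroid plexus (2) passed. Neither of the summed lists had a marker under 1 CPM, and the part of these shifts in the results for the AP-1 genes was not tested. In RNA of whole tissue, fewer cells of a type and less RNA per cell cannot be told apart.

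The sequences just upstream of Fos, Fosb, Jun and Junb are shown because these are the promoters whose start agrees, within 30 bases, between RefSeq and the first GENCODE transcript. They are from RefSeq on GRCm38.p6, read 5′ to 3′ on the strand of the gene. Capitals mark the TGACG core of cAMP response elements, bound by CREB proteins, and in Jun the letters TGACATCA, a variant of the AP-1 and ATF site. The windows are chr12:85473760-85473889 (plus strand) for Fos, chr7:19310052-19310181 (minus strand) for Fosb, chr4:95052223-95052352 (minus strand) for Jun and chr8:84978749-84978878 (minus strand) for Junb.
Fos: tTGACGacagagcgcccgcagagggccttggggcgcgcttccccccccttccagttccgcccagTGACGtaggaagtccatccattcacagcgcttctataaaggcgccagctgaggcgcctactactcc
Fosb: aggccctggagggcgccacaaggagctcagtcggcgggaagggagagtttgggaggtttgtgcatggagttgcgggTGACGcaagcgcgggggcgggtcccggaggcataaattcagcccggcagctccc
Jun: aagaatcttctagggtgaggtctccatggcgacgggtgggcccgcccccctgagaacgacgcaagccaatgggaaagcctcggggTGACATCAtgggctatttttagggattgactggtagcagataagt
Junb: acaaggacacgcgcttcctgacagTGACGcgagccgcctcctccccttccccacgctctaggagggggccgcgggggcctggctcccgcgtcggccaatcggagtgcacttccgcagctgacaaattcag

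Counted from the RefSeq start, with the base before it as -1, TGACG began at -129 and -66 in Fos, at -60 in Fosb and at -106 in Junb. In the 250 bases upstream, with both strands searched, 3 of the 6 genes held TGACG, against 17.8% of 32851 mouse promoter windows of that length. The TGACATCA of Jun began at -45 and was found in 2.93% of the windows. None of the 6 windows held the full palindrome TGACGTCA (1.55% of windows), which contains TGACG, or the AP-1 site TGANTCA (6.75%). CCAAT was found in Jun (-65) and Junb (-36), against 33.8% of windows, and TATAAA in Fos alone (-33), against 12.4%. The RefSeq start of Fosl2 lies 671 bases downstream of the GENCODE start and that of Jund 1210 bases upstream, so their windows are not shown. The counts over 6 genes include both at their RefSeq starts, so the lack of motifs there is uncertain. A match of letters does not show binding.

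Jund was the most abundant of the 6 genes in every library. On the TPM scale, which corrects counts for transcript length as well as library size, its median over the 9 libraries was 98.8, with a range of 86.6 to 106. Fos followed with a median of 28.1 TPM (14.3 to 41.6), Jun with 24.7 (22.1 to 31.9) and Junb with 23.6 (13.5 to 38.9). The values of Fosl2 had a median of 6.12 TPM (5.77 to 13.0) and Fosb of 3.18 TPM (2.18 to 6.27).

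On GRCm38, Fos lies on chromosome 12 (85473890 to 85477273, plus strand), Fosb on chromosome 7 (19302696 to 19310051, minus strand) and Fosl2 on chromosome 5 (32135801 to 32157842, plus strand). Jun lies on chromosome 4 (95049034 to 95052222, minus strand), and Junb and Jund lie on chromosome 8, Jund at 70698949 to 70700616 on the plus strand.

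The steps from Jund to Fos, from Junb to Fosl2 and from Fosl2 to Fosb held in 9 of 9 libraries. The middle of the order was not separated. Fos was above Jun in 6 of 9 libraries, and Jun was above Junb in 2 of 4 CTRL and 4 of 5 Emul libraries.

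**Figure D1:**
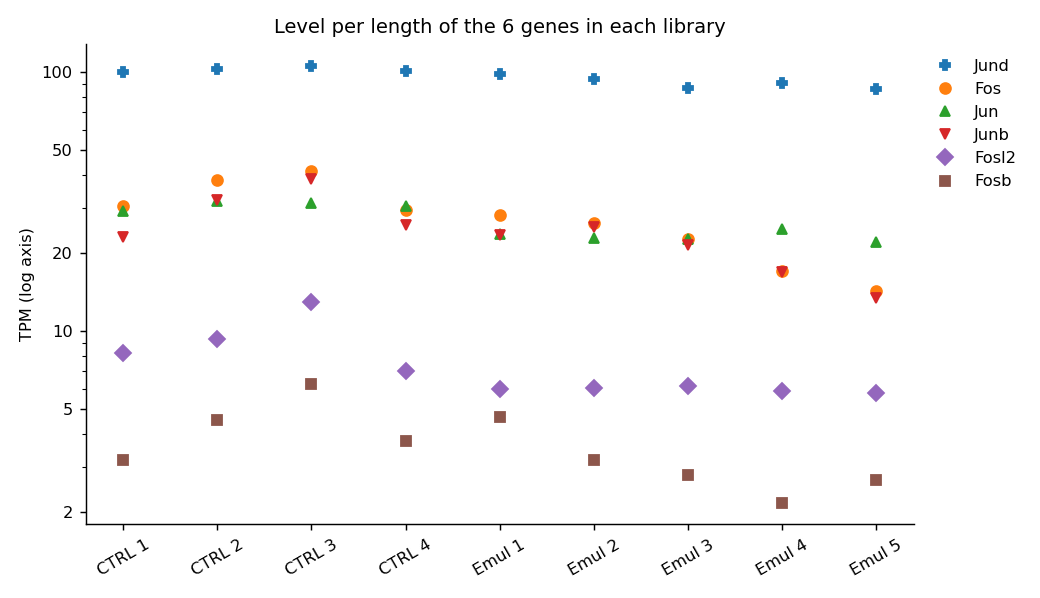
Level of the 6 genes in TPM (log axis), with 1 point for each library (4 CTRL, 5 Emul). Jund lies between 86.6 and 106 TPM, above the other genes in all 9 libraries, and the ranges of Fos, Jun and Junb overlap.

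The first comparison asked whether the level of these genes in the offspring differed with the treatment of the dam. All 6 had a fitted log2 fold change below 0 (Emul against CTRL), against 49.2% of all genes tested. Jun, Fosl2 and Fos were lower in all 5 Emul libraries than in any CTRL library, Junb was lower on average with overlapping groups, and Fosb and Jund did not pass an unadjusted threshold. The median log2 fold change of the 6 genes was -0.38, beside 0.00 over the 15340 genes.

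Among the 6, only Jun had an adjusted p-value under 0.05 (limma-voom, Benjamini-Hochberg over all genes), 1 of 6 against 0.117% of all genes. At an unadjusted p-value under 0.05, 4 of the 6 were lower (8.99% of all genes were) and 0 higher. With a fold change above 1.5 as well, Fos and Fosl2 passed (0.222% of all genes did so in that direction). In 3.8% of all genes every Emul library lay below every CTRL library. Because the genes were picked on this difference, nothing is read from these counts.

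**Figure D2:**
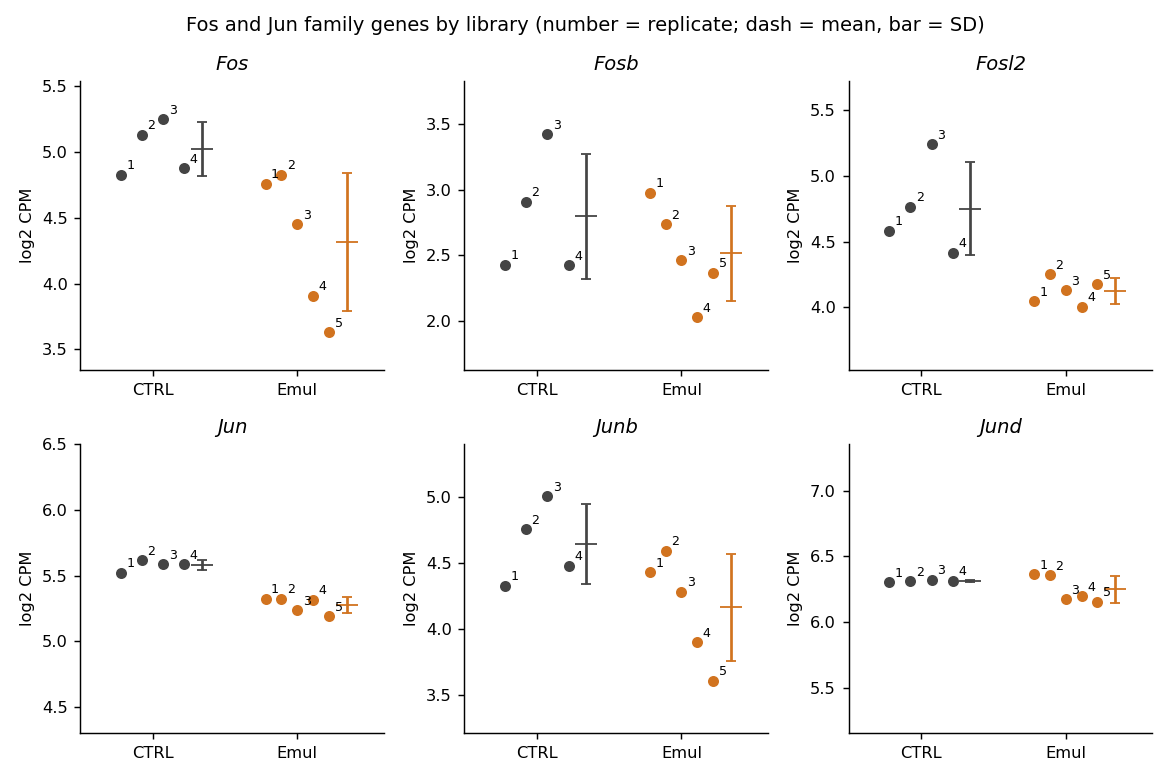
Level of each gene on the log2 CPM scale, with 1 point for each library and a dash and bar for the mean ± SD of CTRL (n = 4) and Emul (n = 5). The vertical axes cover the same span and do not start at 0; the groups do not overlap for Fos, Fosl2 and Jun.

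Jun encodes c-Jun, the strongest activator among the Jun proteins, and is a main target of the Jun N-terminal kinases. Its 4 CTRL libraries had log2 CPM values of 5.52, 5.62, 5.59 and 5.59, and the 5 Emul libraries 5.32, 5.32, 5.24, 5.32 and 5.19. The groups did not overlap and the libraries within each group were close together, CTRL having a mean of 5.58 ± 0.039 (SD, n = 4) and Emul one of 5.28 ± 0.061 (SD, n = 5).

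The fitted log2 fold change of Jun was -0.30 ± 0.039 (SE, 95% confidence interval -0.38 to -0.21), a difference of -18.7%. Its adjusted p-value of 0.0246 (limma-voom) had rank 3 among 15340 genes. The adjusted p-value was 0.104 without CTRL 2, 0.0765 without CTRL 3, 0.0822 without CTRL 4 and 0.0581 without Emul 3, while the log2 fold change stayed between -0.32 and -0.28 whichever library was left out. The antisense gene Junos overlaps Jun and had no quantified transcript, so its reads, if any, cannot be told apart from those of Jun unless strand was used in counting, which the sources used here do not state.

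Junb encodes a Jun protein that is a weaker activator than c-Jun and can oppose it. Its log2 CPM values were 4.33, 4.76, 5.01 and 4.48 in CTRL and 4.43, 4.59, 4.28, 3.90 and 3.61 in Emul. Emul 4 and Emul 5 were the lowest of all libraries, and Emul 1 and Emul 2 lay inside the CTRL range.

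The log2 fold change of Junb was -0.46 ± 0.18 (SE, 95% confidence interval -0.85 to -0.06), with an unadjusted p-value of 0.0272 and an adjusted p-value of 0.253 by limma-voom. The unadjusted p-value was above 0.05 when CTRL 2 (0.0717), CTRL 3 (0.0734), Emul 4 (0.0738) or Emul 5 (0.064) was left out.

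Jund, the third Jun gene, encodes a protein that slows the growth of many cells. In CTRL its 4 libraries were almost equal, at 6.30, 6.31, 6.32 and 6.32 log2 CPM. In Emul the values were 6.37, 6.36, 6.18, 6.20 and 6.16, with 2 libraries above and 3 below the whole CTRL group. In CTRL the SD was 0.0088 (n = 4), whereas Emul had an SD of 0.10 (n = 5).

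The log2 fold change of Jund was -0.06 ± 0.047 (SE, 95% confidence interval -0.16 to 0.04), with an adjusted p-value of 0.552 (limma-voom). On the TPM scale the groups of Jund did not overlap (99.99 to 106 in CTRL and 86.6 to 98.8 in Emul). Over all genes tested, the median difference of log2(TPM + 1) was -0.09. The antisense gene Gm11175, which overlaps Jund on chromosome 8, had no quantified transcript.

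Fos encodes c-Fos. Its log2 CPM values were 4.83, 5.13, 5.25 and 4.88 in CTRL and 4.76, 4.83, 4.45, 3.91 and 3.63 in Emul. Emul 1 and Emul 2 lay at the edge of the CTRL range and Emul 4 and Emul 5 far below it. The lowest CTRL library and the highest Emul library were equal to 2 decimals, and in the deposited log2 CPM table the groups overlapped, with Emul 1 at 4.90 above CTRL 4 at 4.88.

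Fos had the largest log2 fold change of the 6 genes in size, -0.69 ± 0.20 (SE, 95% confidence interval -1.14 to -0.25), a difference of -38.2%. Its unadjusted p-value was 0.0050 and its adjusted p-value 0.169 (limma-voom, rank 456). Its estimated counts ran from 1086 to 1441 in CTRL and from 446 to 1176 in Emul. The SD of Fos on the log2 CPM scale was 0.20 in CTRL and 0.53 in Emul. The log2 fold change was -0.58 without Emul 4 and -0.54 without Emul 5, which puts Fos under the 1.5-fold cutoff.

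Fosl2 encodes Fra-2, a Fos protein that lacks the strong activating domain of c-Fos. Its log2 CPM values were 4.58, 4.77, 5.24 and 4.42 in CTRL and 4.05, 4.25, 4.13, 4.01 and 4.18 in Emul. All Emul libraries were below all CTRL libraries. The spread lay the other way from Fos, CTRL having an SD of 0.36 (n = 4) and Emul one of 0.098 (n = 5).

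The log2 fold change of Fosl2 was -0.60 ± 0.13 (SE, 95% confidence interval -0.89 to -0.32), a difference of -34.1%. Its unadjusted p-value was 0.00061 and its adjusted p-value 0.102 by limma-voom (rank 87), beside 0.0141 by DESeq2. At an adjusted p-value under 0.05, DESeq2 called 2.18% of all genes and limma-voom 0.117%. CTRL 3 was the highest library of Fosl2, and also of Fos, Fosb and Junb, and is the one with the lowest total count. Without it the log2 fold change of Fosl2 was -0.47. It was -0.58 without Emul 1 and -0.57 without Emul 4, so that each of these 3 libraries alone brings Fosl2 under the 1.5-fold cutoff.

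Fosb encodes FosB and, by splicing, the shorter ΔFosB, a stable protein known to build up in neurons under repeated stimulation. Its log2 CPM values were 2.43, 2.91, 3.42 and 2.43 in CTRL and 2.98, 2.73, 2.46, 2.03 and 2.37 in Emul. The groups overlapped, and only Emul 4 and Emul 5 were below all CTRL libraries.

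The log2 fold change of Fosb was -0.25 ± 0.22 (SE, 95% confidence interval -0.72 to 0.22), with an adjusted p-value of 0.611 (limma-voom). It was -0.08 without CTRL 3. Fosb had only 183 to 309 estimated counts per library, the fewest of the 6 genes.

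**Figure D3:**
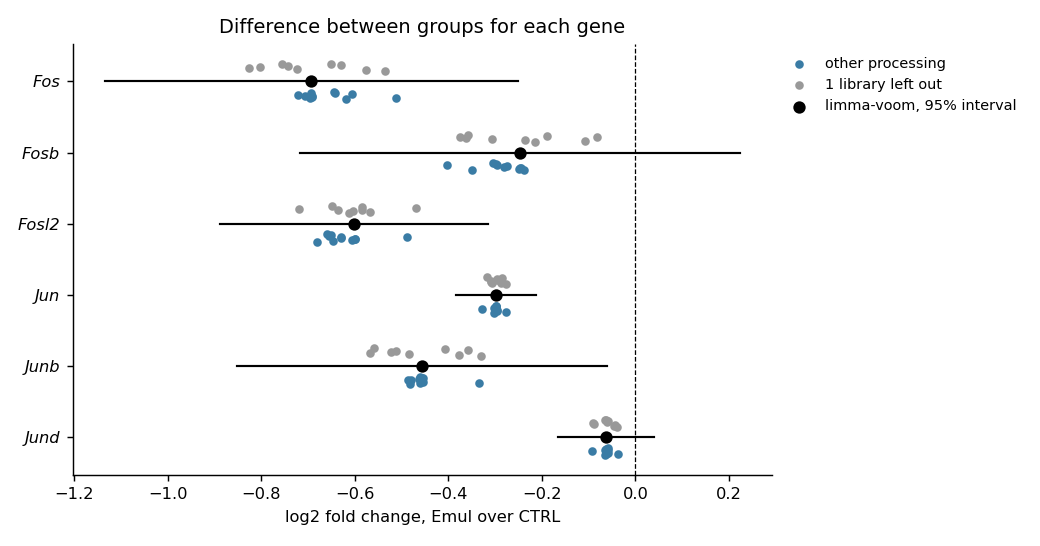
Fitted log2 fold change (Emul against CTRL, limma-voom) of each gene, as a black point with a bar for its 95% confidence interval. Grey points leave out 1 library each and blue points use another processing. The intervals of Fos, Fosl2, Jun and Junb lie below 0 and those of Fosb and Jund span 0.

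The transcripts of these genes were then described. The share of a gene's counts on each transcript was not used in choosing the genes. Its divisor is the count of the gene, however, on which they were chosen. The level of a main transcript is close to the level of its gene. Of 17 quantified transcripts, 14 had a mean of at least 1 estimated count. Jun, Junb and Jund have 1 transcript each among those quantified, and Fos-201 held 90.8% to 99.0% of the Fos counts. Only Fosb had at least 2 transcripts with a mean share of 5% or more. Reads shared by transcripts of a gene are divided among them by kallisto, so shares of a short or rare transcript are estimates.

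Fosl2-201, the coding transcript, had TPM values of 6.66, 7.95, 11.1 and 6.09 in CTRL and 4.11, 4.72, 4.44, 4.28 and 4.96 in Emul. It held most of the Fosl2 counts, so these values repeat the difference of the gene and are no separate finding. Fosl2-203 is annotated as a retained intron. Its TPM values were 1.09, 0.868, 1.47 and 0.531 in CTRL and 1.51, 1.00, 1.24, 1.42 and 0.726 in Emul, which overlapped. Its share of the Fosl2 counts was 3.69%, 2.51%, 3.03% and 2.01% in CTRL and 7.86%, 4.71%, 6.04%, 7.30% and 3.41% in Emul. The lowest Emul value lay inside the CTRL range and the other 4 above it. These shares rest on 18.5 to 33.8 estimated counts in CTRL and 22.2 to 53.0 in Emul, which overlapped. The shares are divided by the Fosl2 count, which was known to be lower in Emul when the gene was chosen. They are therefore not independent of that choice, and they were not tested.

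**Figure D4:**
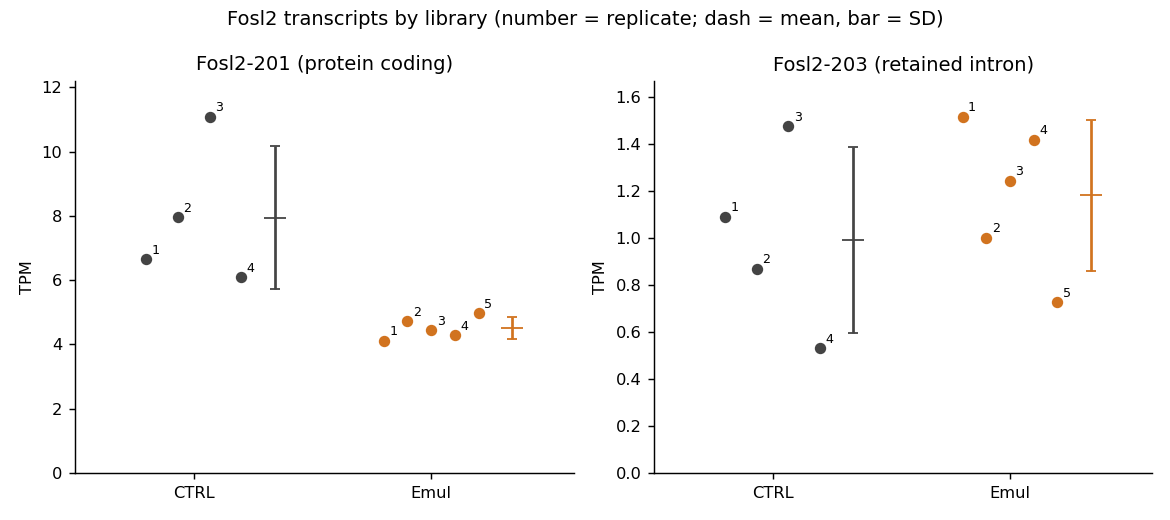
Level of the coding transcript Fosl2-201 and of the retained-intron transcript Fosl2-203 in TPM, with 1 point for each library (the number is the replicate) and a dash and bar for the mean ± SD (n = 4 and 5). Fosl2-201 is at 6.09 TPM or more in CTRL and at 4.96 TPM or less in Emul, and the groups overlap for Fosl2-203.

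The full-length and short forms of Fosb differ by a segment of 140 bases at chr7:19305007-19305146 (minus strand, GRCm38), shown because its removal shifts the reading frame and ends the protein early. It is present in Fosb-201, whose coding sequence has 338 codons, and absent from Fosb-206, with 237 codons, and from Fosb-207, with 201 codons. The segment is in capitals below, between 20 bases of the coding sequence on each side, from GENCODE M21.
Fosb-201: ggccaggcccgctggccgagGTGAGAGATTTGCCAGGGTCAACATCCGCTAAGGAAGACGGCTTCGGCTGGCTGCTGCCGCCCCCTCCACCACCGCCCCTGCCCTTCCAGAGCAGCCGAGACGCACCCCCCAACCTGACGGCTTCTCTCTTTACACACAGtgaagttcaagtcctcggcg

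The share of Fosb counts on Fosb-201 was 90.0%, 92.6%, 91.1% and 74.2% in CTRL and 84.7%, 88.9%, 86.3%, 89.4% and 66.6% in Emul. CTRL 4 and Emul 5 were each low in their group. CTRL averaged 87.0% ± 8.56 (SD, n = 4) and Emul 83.2% ± 9.47 (SD, n = 5). The Emul mean minus the CTRL mean, -3.77 percentage points, did not pass a two-sided exact permutation test over the 126 ways of dividing 9 libraries into 4 and 5 (p = 0.516, with 1 gene tested). The difference turned to 0.38 points without Emul 5 and to 3.43 points when shares were taken from TPM.

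Fosb-206 and Fosb-207, which splice out the segment, together held 4.51%, 4.17%, 2.55% and 18.6% of the Fosb counts in CTRL and 6.72%, 4.91%, 6.92%, 1.22% and 27.8% in Emul. CTRL 4 and Emul 5 were the high libraries here, 1 in each group. These shares rest on 2.24 to 51.4 estimated counts per library. Taken singly, Fosb-206 averaged 5.67% in CTRL and 1.67% in Emul, and Fosb-207 averaged 1.79% and 7.85%. In Emul 5 the whole 27.8% was on Fosb-207. The sum is therefore not the level of any single protein form, and the split was not tested. The retained-intron transcript Fosb-204, which ends before the segment, held a further 3.28% to 9.33% of the Fosb counts.

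The make-up of the 6-gene pool was described on the TPM scale. Together the genes reached 194 to 237 TPM in CTRL and 145 to 185 TPM in Emul. Fos, Fosb and Fosl2 summed to 40.2 to 60.9 TPM in CTRL and to 22.8 to 38.7 TPM in Emul, and the Jun genes to 152 to 176 TPM and 122 to 146 TPM. None of these sums overlapped between the groups, but the genes were chosen with this difference known. Over all genes tested, TPM was also lower in Emul, with a median difference of log2(TPM + 1) of -0.09. The share of all genes without overlap on the TPM scale was not computed, so nothing is read from the lack of overlap. Jund made up 44.7% to 51.5% of the pool in CTRL and 53.0% to 59.8% in Emul. The ratio of Jun to Fos genes was 2.89 to 3.91 in CTRL and 3.77 to 5.37 in Emul, which overlapped. These sums follow from the values of the single genes and are RNA levels, not amounts of protein or of dimers.

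Within the groups, Fos and Junb varied together. After the mean of each group was subtracted, their log2 CPM values had a Pearson r of 0.96 over the 9 libraries, and Junb had rank 6 for likeness to Fos among 15339 genes. Emul 1 and Emul 2 were high for both genes and Emul 4 and Emul 5 low. The r with Fos was 0.81 for Jund, 0.73 for Fosb, 0.63 for Jun and 0.34 for Fosl2. Fosl2 was most like Fosb among the 6 genes (r = 0.76) and had an r of 0.04 with Jun. With 9 libraries that share their sequencing depth and dissection between genes, these values are descriptive.

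The genes most like each one by the same measure were Nr4a1 (0.98) and Ovca2 (0.98) for Fos. Nr4a1 encodes an orphan nuclear receptor and is itself an immediate early gene. For Junb they were Trex1 (0.97) and Slc16a4 (0.96), for Jun Fahd2a (0.96) and Cyth4 (0.96), and for Jund Chmp1a (0.98) and Irf2bp2 (0.98). For Fosb they were Zfp729b (0.95) and Etv3 (0.93), and for Fosl2 Myrip (0.93) and Gm10509 (0.93). Each pair was picked as the highest r among all other genes tested, over only 9 libraries. Such a pick gives high values for unrelated genes too, so no shared regulation is read from them.

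The second comparison took genes around AP-1, in 7 lists with 148 tested genes beside the 6. The lists were chosen with earlier results of these data known, so nothing is read from their counts. Besides partners, regulators and candidate targets of AP-1, the lists hold other immediate early genes and genes of mRNA decay. With limma-voom, 0 of the 148 passed an adjusted p-value under 0.05, beside 1 by edgeR and 6 by DESeq2, which called 335 of all genes. At an unadjusted p-value under 0.05, 19 were lower in Emul and 6 higher, against 8.99% and 6.84% of all genes tested. With libraries scaled by their size alone, 31 were lower and 3 higher. The median log2 fold change over the 148 genes was -0.01.

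Among 32 other immediate early genes, 8 were lower and 0 higher at the unadjusted threshold, and 24 did not pass. Of all genes tested, 8.99% were lower and 6.84% higher at it. This list too was chosen with earlier results of these data known. The list's median log2 fold change was -0.13 and its summed level was 642 to 686 CPM in CTRL and 494 to 612 CPM in Emul. Such sums are scaled by library size alone, with which the median log2 fold change over all genes tested was -0.03. The sums of the AP-1 partners (782 to 803 CPM in CTRL, 760 to 777 in Emul) did not overlap either. The same held for the mRNA decay genes (1446 to 1530 and 1380 to 1437), while the sums of the remaining lists overlapped. Nr4a3, an orphan nuclear receptor related to Nr4a1, differed by -1.03 ± 0.21 on the log2 scale (SE), with adjusted p-values of 0.0916 by limma-voom and 0.0494 by edgeR. Its log2 CPM values ran from 3.49 to 4.54 in CTRL and from 2.70 to 3.15 in Emul, without overlap. Sik1, a kinase induced by cAMP that restrains CREB coactivators, differed by -0.48 ± 0.093 (SE), and its adjusted p-value was 0.0813 by limma-voom. By DESeq2, which called 2.18% of all genes, the adjusted p-values were 0.0011 for Nr4a3 and 0.00015 for Sik1. The other 6 lower genes were Egr1 (-0.49), Nr4a1 (-0.69), Per1 (-0.12), Btg2 (-0.40), Gem (-0.65) and Rrad (-0.69), named after their values were seen.

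In the list of proteins that govern the decay of short-lived mRNAs through AU-rich elements, 5 of 18 genes were lower at the unadjusted threshold and 0 higher. Of all genes tested, 8.99% were lower and 6.84% higher at it. The list median was -0.01. On the log2 scale Btg1 differed by -0.21 ± 0.044 (SE) and Tob2 by -0.27 ± 0.064 (SE). Their adjusted p-values were 0.101 and 0.112 by limma-voom, beside 0.0065 and 0.0177 by DESeq2. Both belong to the BTG/TOB family, which recruits deadenylases. The other 3 were Btg2 (-0.40), Zfp36l1 (-0.19), a protein that binds AU-rich elements, and Khsrp (-0.08). Btg2 is counted both here and among the other immediate early genes.

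The 2 lists upstream of AP-1 are set beside all genes tested, of which 8.99% were lower and 6.84% higher at the unadjusted threshold. In the mitogen-activated protein (MAP) kinase cascade, 2 of 33 genes were lower at the unadjusted threshold (Map3k1 at -0.18 and Map2k3 at -0.19) and 2 higher (Braf and Mapk9, each at 0.07). Of 17 factors that act at immediate early promoters, the coactivator Ep300 was lower (-0.09), and Mef2a (0.25) and Mrtfa (0.11) were higher. The medians of both lists were -0.01.

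Of 16 tested AP-1 partners with a leucine zipper, 1 passed the unadjusted threshold, Mafg (-0.09), and Nfe2l2 had a log2 fold change of -0.09 that did not. Of 16 genes for the turnover and modification of AP-1 proteins, 2 were higher at that threshold, among them Cop1 (0.11), a ubiquitin ligase for c-Jun, and Det1 (-0.20) and Sirt1 (-0.15) were lower. Of 18 candidate AP-1 target genes, 1 passed, Ccnd1, the gene of cyclin D1 (-0.15), and Spp1 had a log2 fold change of -0.19 with an unadjusted p-value of 0.195. The list medians were 0.01, 0.02 and 0.01. Of all genes tested, 8.99% were lower and 6.84% higher at the unadjusted threshold.

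**Figure D5:**
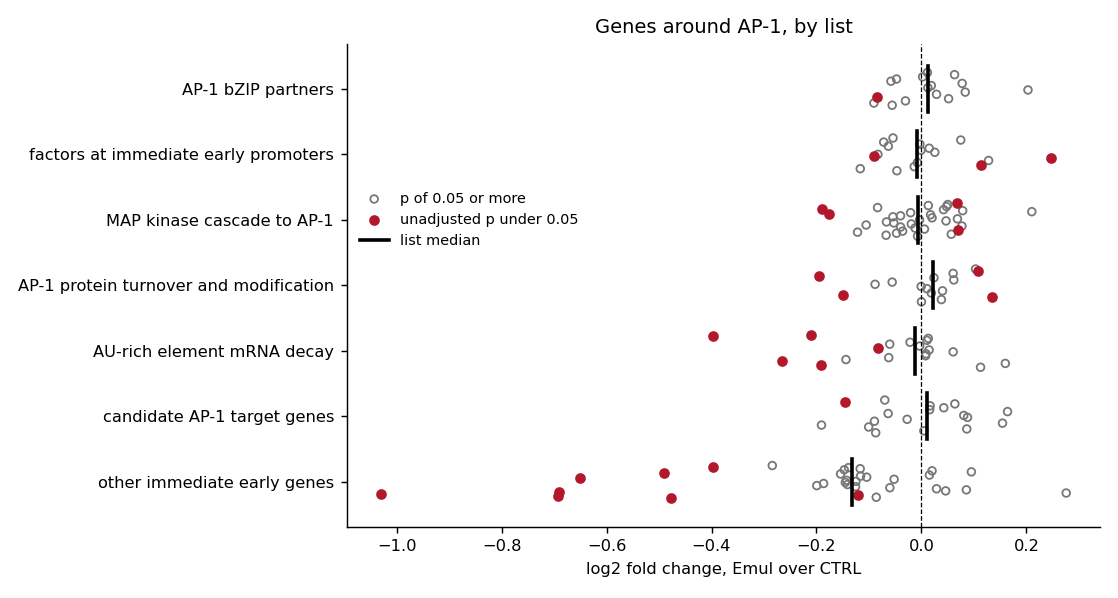
Log2 fold change (Emul against CTRL, limma-voom) of each tested gene in the 7 lists, with 1 point for each gene (filled where the unadjusted p-value is under 0.05) and a line for the list median. The median is -0.13 for the other immediate early genes and between -0.01 and 0.02 for the remaining lists, and Nr4a3 lies lowest at -1.03.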

How the data were processed

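Poly(A) RNA was sequenced in 9 libraries with a strand-specific kit. The authors ran kallisto 0.46.1 (submitters' processing notes, which also name FastQC 0.11.9 and edgeR 3.40.1) on mm10 and deposited, per transcript, estimated counts, which are not normalized, and TPM. The deposited gene table holds log2 CPM values. The strand setting of kallisto is not given in the sources used here.

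Of 119414 transcripts, 97.8% matched GENCODE M21, and 1.20% to 1.27% of counts were left out as unmatched. Counts were summed per gene. Genes were kept if 4 or more libraries had over 1 CPM, scaled by TMM and compared by limma-voom (limma 3.58.1, edgeR 4.0.16, R 4.3.3), with Benjamini-Hochberg adjustment over 15340 genes. Log2 CPM of single libraries used a prior count of 2. The 1.5-fold cutoff follows the study's methods. The fits were tested on simulated data. Alternatives were DESeq2 1.42.0 and edgeR's quasi-likelihood test (both on rounded counts), other scalings and filters, the deposited log2 CPM table, the replicate number as a block, and each library left out.

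The 6 genes and the lists were chosen with earlier results of these data known. From each list, the 2 genes with the lowest unadjusted p-values were to be named, with any past the adjusted threshold, and for likeness the 2 genes with the highest r per AP-1 gene. Some genes that this rule would name are not reported here. Replicate numbers do not pair the libraries. No batch or date was given, so none was modelled. At 28245360 counts or more per library, counting error is small except for Fosb and rare transcripts.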

Additional observations from a re-analysis of the deposited data

Results flagged for a closer look

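The share of Fosb counts on Fosb-201 was 74.2% in CTRL 4, beside 90.0% to 92.6% in the other CTRL libraries, and the gap was 0.861 of the group's range, above the limit of 0.829 for 4 samples. In Emul 5 it was 66.6%, beside 84.7% to 89.4%, with a gap of 0.793 of the range, above the limit of 0.71 for 5 samples. In all, 32 groups of values were examined, of which chance alone would mark about 1.6.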

How the results depend on the processing

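All 6 genes were lower in Emul under each of the 20 alternatives. The count past the adjusted threshold was 1 by limma-voom and 2 by DESeq2 (Jun and Fosl2). With limma it was 0 on lengthScaledTPM counts (Jun at 0.0503) and 0 on the deposited log2 CPM table (Jun at 0.0553). It was 0 to 1 when a library was left out. The share of all genes past that threshold was 0.117% by limma-voom, 2.18% by DESeq2, 0.209% by edgeR and 0.391% with library size alone. This share was 0.0391% with lengthScaledTPM counts, 0.0343% with the deposited table and 0% to 0.157% when a library was left out. The count past the 1.5-fold cutoff, 2, was 1 with lengthScaledTPM counts and 0 to 2 when a library was left out, with 0 without Emul 4. With library size alone, the 148 pathway genes gave 31 lower and 3 higher genes at the unadjusted threshold and 2 at the adjusted one, beside 6 by DESeq2 and 1 by edgeR. Leaving out a library gave 14 to 22 lower and 3 to 9 higher. The difference in the Fosb-201 share was 3.43 points from TPM and -8.02 to 0.38 points when a library was left out. Transcripts with lower Ensembl numbers left 1 Fosb transcript and no value. Same-numbered libraries had correlations of -0.16 to 0.021, so the replicate numbers give no pairing. The replicate block, fitted on replicates 1 to 4, gave 0 AP-1 genes past the adjusted threshold, which 0.00654% of all genes passed. It gave 1 AP-1 gene past the cutoff and 3 pathway genes higher. The causes of these changes were not tested. Depth limits Fosb and the rare transcripts.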
